A study of Homo sapiens with 9 samples.

Results

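HHIP and 8 further genes of the hedgehog pathway (PTCH1, SMO, SUFU, GLI1, GLI2, GLI3, BOC and CDON) were followed in nascent RNA, as 9 of the 57733 genes in the deposited tables. HHIP was chosen by its difference between the knockout clones and the control in these same data, and the others were listed by symbol as the receptors, co-receptors and GLI factors of its pathway. Values of HHIP between lines are therefore a description and carry no test. All samples are PANC-1, an established line from a human pancreatic ductal carcinoma. The control (WT) received no guide RNA, and KO C22 and KO C28 are single clones of a CRISPR/Cas9 knockout of KDM6A (also named UTX), an enzyme that takes repressive methyl groups off histones. Since each genotype is 1 control line or 1 clone, a difference between clones of the same line and the knockout cannot be told apart within a clone. Bru-seq captures RNA labelled with 2 mM bromouridine for 30 min and taken 0 h later, with 2 libraries per line. In BruUV-seq the cells also received 100 J/m2 of UV, which stops polymerases at lesions so that reads gather toward gene starts, with 1 library per line. Whether replicates came from separate cultures is not given in the labels, so the p-values below describe the spread among these libraries, which may be technical.

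Hedgehog ligands (SHH, IHH, DHH) bind the receptor PTCH1, which otherwise holds the transducer SMO inactive. CDON and BOC are co-receptors that help ligand reach PTCH1, and HHIP is a membrane glycoprotein that binds and sequesters the ligands. Active SMO frees the GLI transcription factors from SUFU. GLI2 is the main activator, GLI3 acts largely as a repressor, and GLI1, PTCH1 and HHIP are themselves known target genes of the pathway. In pancreatic cancer, hedgehog ligand from tumour cells is known to act largely on the surrounding stroma.

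The promoter of HHIP is shown because HHIP is the member whose transcription differed most between the lines, and the promoter of a PTCH1 transcript because it holds the full GLI motif. Both are RefSeq windows of 300 bases, from 250 before to 50 after a transcript start, printed 5′ to 3′ in the sense of the gene (build GRCh38.p14). HHIP lies at chr4:144645906-144646205 on the plus strand and the PTCH1 window at chr9:95509217-95509516 on the minus strand. In HHIP the capitals mark CCACCC, the core of the GLI motif, and TGACGTCA, the palindrome known as a cAMP response element. In PTCH1 they mark TGGGTGGTC, the reverse complement of the GLI motif GACCACCCA.
HHIP: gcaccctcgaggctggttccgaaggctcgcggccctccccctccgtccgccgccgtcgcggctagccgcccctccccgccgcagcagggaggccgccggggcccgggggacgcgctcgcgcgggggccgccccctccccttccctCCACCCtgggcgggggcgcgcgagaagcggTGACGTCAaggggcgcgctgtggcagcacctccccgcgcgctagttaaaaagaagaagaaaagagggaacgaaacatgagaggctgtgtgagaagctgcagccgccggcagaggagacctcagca
PTCH1: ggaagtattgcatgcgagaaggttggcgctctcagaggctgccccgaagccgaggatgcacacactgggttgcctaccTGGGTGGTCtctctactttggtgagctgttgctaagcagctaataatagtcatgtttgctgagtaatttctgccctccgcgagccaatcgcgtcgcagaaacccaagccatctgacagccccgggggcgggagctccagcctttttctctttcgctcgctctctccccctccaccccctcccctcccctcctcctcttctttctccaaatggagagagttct

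The HHIP window was rich in GC (72.7%) and held 36 CpG dinucleotides, a number reached by 12.7% of all 35116 promoter windows, whose medians were 58.7% GC and 14 CpG. It held CCACCC once, 105 bases before the start, and TGACGTCA once, 75 bases before the start. On either strand CCACCC was in 34.3% of all windows and TGACGTCA, which was searched after the sequence had been read, in 1.85%. GACCACCCA, which contains CCACCC, was in 0.236% of windows and not in that of HHIP. Of the 9 genes, 7 had 15 windows between them, and the GLI motif was in 1 of these, 172 bases before a PTCH1 start. GLI1 and GLI3 had no window. A match of letters is no sign of binding, and the start used by the cells was not measured. RefSeq puts the HHIP start 135 bases inside the start of the gene in the deposited tables.

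The libraries held 14.4 to 31.1 M estimated reads in genes, apart from Bru-seq KO C28 replicate 2 with 5.64 M. In that library 46.5% of reads fell outside genes (9.93% to 20.01% elsewhere), and its log2 CPM across genes correlated with the other libraries at 0.649 to 0.793. Reads over 403 olfactory receptor genes, which epithelial cells do not transcribe, gave a background density of 0.161 reads per kb per M reads there and 0.0308 in Bru-seq KO C22 replicate 1. The other 7 libraries lay between 0.00298 and 0.0102. KDM6A was still transcribed at 276 to 427 CPM (reads per M reads, scaled by TMM factors) in the Bru-seq libraries apart from that one (65.9 CPM) and at 125 to 203 in BruUV-seq. For this gene, a log2 fold change of -0.01 (SE 0.57) was found in KO C22, and of -0.35 (SE 0.57) in KO C28, and a count over the whole gene cannot show a lesion of a few bases. The 5 ductal epithelial markers (KRT7, KRT8, KRT18, KRT19 and EPCAM) lay above background in every library, KRT8 with 708 to 12609 reads. Of 6 fibroblast and 4 leukocyte markers, COL1A1 (20 to 493 reads) and CD68 (1 to 9 reads) did so in every library, while LUM and CD3E gave at most 6 and 5 reads. None of these markers passed in edgeR in either clone. The 5 epithelial markers had log2 fold changes of -2.27 (EPCAM) to 0.19 (KRT7) in KO C22, 1 of them above 0, and of -1.14 (EPCAM) to 2.31 (KRT19) in KO C28, 4 above 0. The 4 fibroblast markers tested ran from -1.30 (PDGFRB) to 1.69 (COL1A1) in KO C22, 2 above 0, and from -0.56 (PDGFRB) to 2.18 (DCN) in KO C28, 3 above 0. PTPRC, the 1 leukocyte marker tested, stood at 0.41 and 1.66. Their part in the values of HHIP was not tested.

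HHIP had almost no reads in the control and more in both clones. The gene (ENSG00000164161.9, chromosome 4, 144646021 to 144745271, plus strand) gave 3 and 2 reads in the Bru-seq libraries of WT and 3 in its BruUV-seq library. KO C22 had 265 and 449 Bru-seq reads and 72 BruUV-seq reads of HHIP. KO C28 had 98 and 10 Bru-seq reads and 84 BruUV-seq reads. Every clone library lay above every WT library, also after scaling, although the lowest, Bru-seq KO C28 replicate 2, came to only 10 reads. Per gene length, HHIP had 0.00101 ± 0.000292 RPKM in WT, 0.0973 ± 0.0454 in KO C22 and 0.0357 ± 0.0232 in KO C28 (mean ± SD, n = 3 libraries per line, both assays).

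**Figure D1:**
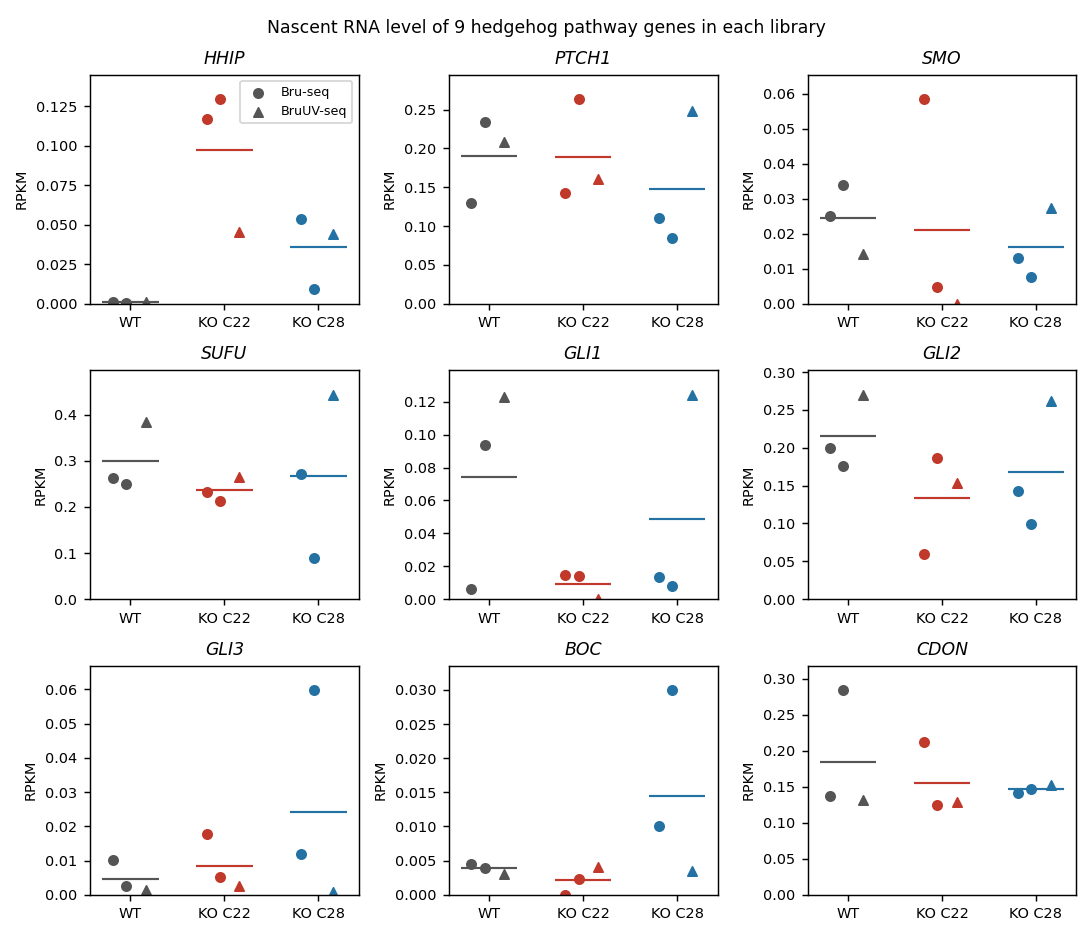
RPKM (reads per kb per M reads) of the 9 genes in each library of WT, KO C22 and KO C28, with circles for Bru-seq, triangles for BruUV-seq and a line at the mean of 3 libraries; the axes start at 0 and differ between genes. HHIP is the gene in which all 6 clone libraries stand above the 3 of WT.

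As the WT reads are so few, the size of the difference was read from summed reads with exact counting intervals at 95%, which cover counting error alone. KO C22 stood 127 times above WT (64.3 to 295.8) over 3 libraries each. KO C28 stood 40.4 times above WT (20.1 to 94.98). In KO C28 Bru-seq, replicate 1 gave a ratio of 57.8 (23.9 to 181.9) and replicate 2 one of 11.5 (3.57 to 42.7). The BruUV-seq libraries of KO C28 and WT gave 37.3 (12.3 to 184.7), and those of KO C22 and WT gave 43.9 (14.4 to 217.8). The 10 reads behind the ratio of replicate 2 lie below the 90.4 that background would give there.

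In the edgeR fit of all 9 libraries KO C22 differed from WT in HHIP by 6.70 (SE 0.96) on the log2 scale and KO C28 by 5.09 (SE 0.90). Without Bru-seq KO C28 replicate 2 these were 6.65 (SE 0.63) and 5.63 (SE 0.63). As these contrasts chose the gene, no test is given. All 3 libraries of a clone lay above all 3 of WT for 4.88% of 20819 genes in KO C22 and 4.33% in KO C28, and below for 6.12% and 5.9%. Among the 9 members, 1 lay above in each clone, HHIP, and 0 below.

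The clones differed in HHIP by counts in Bru-seq, while the BruUV-seq interval included 1. The ratio of KO C22 over KO C28 was 3.83 (3.12 to 4.73) in Bru-seq, 2.78 (2.25 to 3.47) without KO C28 replicate 2, and 1.17 (0.845 to 1.63) in BruUV-seq. In the fit the log2 difference, KO C28 minus KO C22, was -1.60 (SE 0.76). That contrast called 0% of the 20819 genes in edgeR, with 1189 at an unadjusted p below 0.05 and 228 called by DESeq2.

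Reads of HHIP were set against the number that the density in olfactory receptor genes would give over its 99.3 kb. In Bru-seq KO C22 replicate 2 there were 449 reads where background would give 10.6, and in replicate 1 there were 265 against 55.9. In BruUV-seq KO C22 had 72 against 9.27 and KO C28 had 84 against 8.39. Bru-seq KO C28 replicate 1 had 98 against 15.97. The reads of KO C28 replicate 2 stayed below background, at 0.111 of it, as did all 3 WT values, at 0.154 to 0.456 of background. HHIP was thus above background in 5 of 9 libraries, all of them of the clones. This density is a rough guide, since other genes also fell far below it, such as PDGFRB at 0.0261 of it in Bru-seq KO C28 replicate 2. It may overstate the background of a given gene, so reads below it do not show that a gene is silent.

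**Figure D2:**
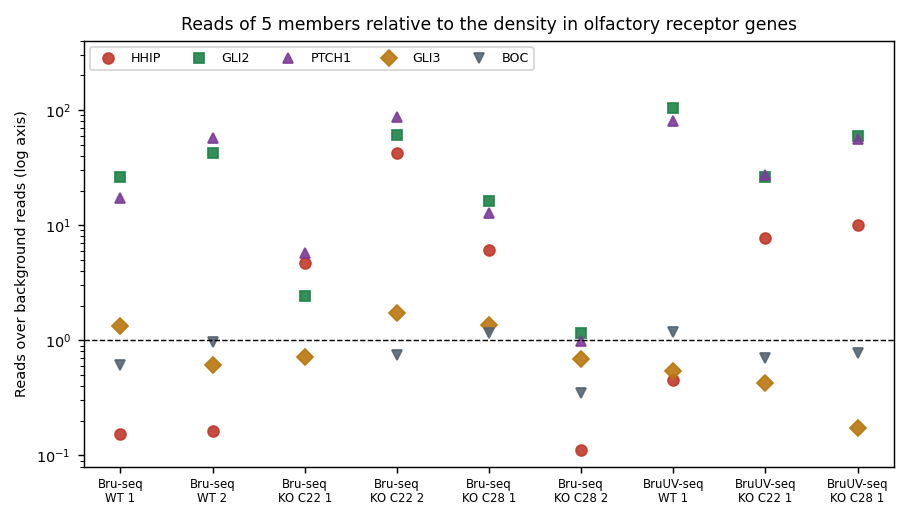
Reads of HHIP, GLI2, PTCH1, GLI3 and BOC divided by the reads expected from the density in olfactory receptor genes, per library, on a log axis with the dashed line at 1; BOC had 0 reads in Bru-seq KO C22 replicate 1 and has no point there. HHIP lies below the line in WT and in Bru-seq KO C28 replicate 2 and above it in the other 5 clone libraries.

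HHIP-AS1, an antisense gene that spans the HHIP start, has its own start 15.3 kb inside HHIP in the deposited tables. It had 3 reads in all 9 libraries together over the 1.18 kb counted for it. The sources used here do not say whether strand entered the counting. No tested neighbour of HHIP passed. Of 29 genes whose starts lie within 1 Mb of that of HHIP, 7 had 0 reads in every library and 7 were tested. In either clone 0 of these 7 passed in edgeR, DESeq2 or limma-voom, and 1 had an unadjusted edgeR p below 0.05 in each. The recycling factor gene ABCE1 stood at -0.36 (SE 0.40) in KO C22 (log2, here and below) and -0.67 (SE 0.40) for KO C28. ANAPC10, of the anaphase-promoting complex, stood at -0.03 (SE 0.59) and -0.56 (SE 0.60). The deubiquitinase gene OTUD4 stood at 0.02 (SE 0.35) and -0.12 (SE 0.35), and SMAD1, a transducer of BMP signals, at 0.29 (SE 0.44) and -0.43 (SE 0.44). MMAA, of cobalamin metabolism, stood at -0.33 (SE 0.61) and -0.73 (SE 0.62). FREM3 had larger values, 2.45 (SE 1.60) and 3.18 (SE 1.65), but gave more than 12 reads only in the 2 libraries of highest background density (65 and 64 reads), where background would give 69.5 and 112.4.

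**Figure D3:**
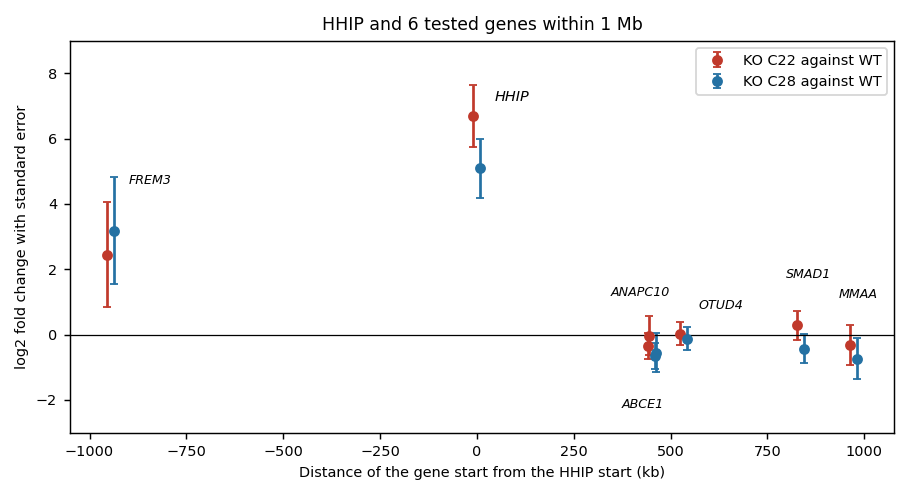
Log2 fold change against WT, with standard errors, of HHIP and 6 of the 7 tested genes whose starts lie within 1 Mb, by distance from the HHIP start in kb; red is KO C22 and blue KO C28, set slightly apart. HHIP stands at 6.70 and 5.09, and OTUD4 at 0.02 and -0.12.

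None of the other members passed in either clone. BOC fell under the filter on low counts, and of the other 7 members 0 passed in edgeR, DESeq2 or limma-voom in KO C22 or KO C28, where edgeR called 0.178% and 0.125% of all genes, DESeq2 1.67% and 3.42%, and limma-voom 0.211% and 0.125%. At an unadjusted p below 0.05 there were 0 of 7 in both clones by edgeR and 1 by DESeq2, GLI3 in KO C28. Their median log2 fold change was -0.10 in KO C22 and -0.30 in KO C28, against 0.02 and -0.06 over all genes tested. The standard errors, from 0.41 for CDON to 1.51 for GLI1, set what could be detected and are widest for the less transcribed members.

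**Figure D4:**
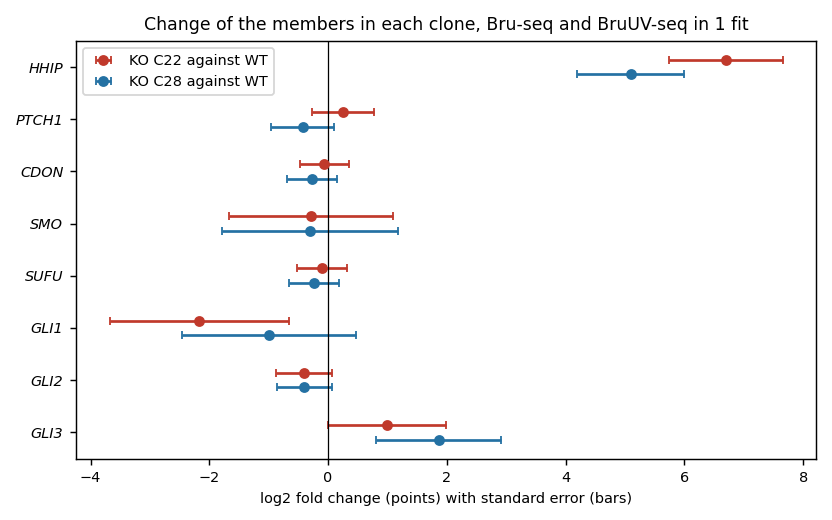
Log2 fold change against WT (points) with standard errors (bars) for the 8 tested members in KO C22 (red) and KO C28 (blue), from 1 fit of 9 libraries. HHIP lies at 6.70 and 5.09; the bars of GLI1, GLI3 and SMO are the widest, with standard errors of 0.99 to 1.51.

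PTCH1, the receptor and a known GLI target (ENSG00000185920.15, chromosome 9, 95442980 to 95517057, minus strand), lay above background in 8 of 9 libraries and passed in neither clone. The exception was Bru-seq KO C28 replicate 2, with 66 reads against 67.5 expected from background. It gave 11.4 and 21.3 CPM in the Bru-seq replicates of WT, 13.0 and 30.2 in those of KO C22 and 9.63 and 8.18 in those of KO C28. In BruUV-seq it gave 16.6, 14.6 and 19.9 CPM in WT, KO C22 and KO C28. The groups overlapped, and replicates of WT and of KO C22 differed among themselves by as much as the lines did. Against WT, KO C22 stood at a log2 fold change of 0.25 (SE 0.52, adjusted p = 0.998) and KO C28 at -0.43 (SE 0.53, adjusted p = 0.785). Without Bru-seq KO C22 replicate 2 the value in KO C22 was -0.39.

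Of the co-receptors, CDON (chromosome 11, 125955796 to 126063292, minus strand) lay above background in every library, by 1.69 to 68.8 times. It gave 17.6 and 37.4 CPM in the Bru-seq replicates of WT, 28.2 and 20.8 in those of KO C22 and 17.9 and 20.6 in those of KO C28, and 15.1, 17.0 and 17.7 in BruUV-seq. No clone library lay outside the range of WT. For this gene, a log2 fold change of -0.07 (SE 0.41) was found in KO C22, and of -0.27 (SE 0.42) in KO C28. Without WT Bru-seq replicate 2 the value in KO C22 was 0.36. BOC (chromosome 3, 113211482 to 113287459, plus strand) gave 0 to 24 reads per library. It exceeded background in 2 of 9 libraries, by at most 1.19 times, so no level of BOC was detectable beyond background at this depth.

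SMO, the transducer (chromosome 7, 129188872 to 129213545, plus strand), was weakly transcribed, with 16, 25 and 9 reads in WT. KO C22 gave 33, 4 and 0 reads, and KO C28 gave 6, 2 and 13, each in the order Bru-seq replicates 1 and 2 and BruUV-seq. The 33 reads lay in the KO C22 library of high background density, and the 0 in BruUV-seq allows up to 3 reads, or 0.231 CPM. KO C22 differed from WT by -0.28 (SE 1.38) on the log2 scale, KO C28 by -0.30 (SE 1.49). Without Bru-seq KO C22 replicate 1 the value in KO C22 was -2.80 (SE 1.65), and without BruUV-seq KO C28 that in KO C28 was -1.90.

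SUFU, which restrains the GLI factors (chromosome 10, 102503987 to 102633535, plus strand), had the highest level per gene length of all members in each line. It gave 40.5 and 39.5 CPM in the Bru-seq replicates of WT, 37.1 and 42.7 in those of KO C22 and 41.1 and 15.1 in those of KO C28. In BruUV-seq it gave 53.5, 42.4 and 62.1 CPM in WT, KO C22 and KO C28. The 15.1 CPM belong to the shallow KO C28 library, and the other 8 libraries span 37.1 to 62.1. Against WT, KO C22 stood at a log2 fold change of -0.10 (SE 0.42) and KO C28 at -0.24 (SE 0.42). Without that library the value in KO C28 was 0.14 (SE 0.29).

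GLI1, the target gene that most directly reports pathway output (chromosome 12, 57460135 to 57472262, plus strand), was low and uneven. WT gave 2, 34 and 38 reads, KO C22 gave 4, 6 and 0, and KO C28 gave 3, 1 and 29, each in the order Bru-seq replicates 1 and 2 and BruUV-seq. All 3 KO C22 libraries were low, but so was Bru-seq WT replicate 1, and the groups overlapped. Against WT, a log2 fold change of -2.17 (SE 1.51, adjusted p = 0.987) was found in KO C22, and of -0.995 (SE 1.46, adjusted p = 0.824) in KO C28. It was -0.47 in KO C22 without WT Bru-seq replicate 2, and -2.69 in KO C28 without the BruUV-seq library of that clone.

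GLI2, the activator (chromosome 2, 120792409 to 120992653, plus strand), was the best transcribed GLI gene. WT gave 47.5 and 43.3 CPM in Bru-seq and 58.1 in BruUV-seq. KO C22 gave 14.9, 57.6 and 37.9 CPM, and KO C28 gave 33.5, 25.9 and 56.7, in the same order. In each clone 2 of 3 libraries lay below the lowest WT library. KO C22 differed from WT by -0.41 (SE 0.47, adjusted p = 0.993) on the log2 scale, KO C28 by -0.40 (SE 0.47, adjusted p = 0.776). Between its 2 Bru-seq replicates KO C22 spanned more than the 3 lines differed, and its value was -1.23 without replicate 2 and -0.07 without replicate 1.

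GLI3 (chromosome 7, 41960950 to 42237059, minus strand) gave 72, 21 and 10 reads in WT. KO C22 gave 112, 51 and 11 reads, and KO C28 gave 60, 174 and 4. These lay at 0.171 to 1.74 times background and above it in 3 of 9 libraries. The 174 reads of Bru-seq KO C28 replicate 2 compare with 251.6 expected from its olfactory receptor genes. Against WT, KO C22 stood at a log2 fold change of 0.998 (SE 0.99, adjusted p = 0.992) and KO C28 at 1.86 (SE 1.05, adjusted p = 0.547). Without that library the value in KO C28 was 0.29 (SE 0.86).

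The order of the members per gene length placed HHIP last in WT, at rank 5 of 9 in KO C22 and at rank 6 in KO C28. In WT the mean RPKM was 0.299 for SUFU, 0.215 for GLI2, 0.191 for PTCH1 and 0.184 for CDON, and the ranges of neighbours among these overlapped. GLI1 followed at 0.0744 and SMO at 0.0244, again with overlapping ranges. GLI3 (0.00467) and BOC (0.00387) overlapped each other and lay below every WT library of SMO. HHIP, at 0.00067 to 0.00119 RPKM, lay below the lowest library of GLI3 and of BOC. In KO C22 HHIP stood between GLI2 (0.133) and SMO (0.0210), and its range, 0.0454 to 0.130, overlapped those of both. In KO C28 it stood between GLI1 (0.0485) and GLI3 (0.0241), with ranges that overlapped. That mean of GLI3 rests on 0.0598 in Bru-seq KO C28 replicate 2, beside 0.0118 in replicate 1 and 0.00075 in BruUV-seq. HHIP lay below background in every WT library, and GLI3 and BOC exceeded it in 3 and 2 of 9 libraries. The ranks of such values therefore do not order levels of transcription.

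Of 45 further hedgehog pathway genes, 38 were tested and 0 passed in edgeR in either clone. At an unadjusted p below 0.05 there were 3 in KO C22 (HHAT, SCUBE2 and BCL2) and 11 in KO C28, beside 5.86% and 10.5% of all genes tested. By DESeq2 1 passed in KO C22 (HHAT) and 5 in KO C28 (HHAT, SCUBE2, IGFBP6, BMP4 and LRP2), all higher than in WT. By limma-voom 0 passed in both. Over all genes tested, DESeq2 called 1.67% in KO C22 and 3.42% in KO C28, and limma-voom 0.211% and 0.125%. The reads of LRP2 lay near or below background, as given below. In KO C22 23 of the 38 lay above WT, with a median log2 fold change of 0.20, and in KO C28 21, with a median of 0.18. Of all genes tested, 51.5% lay above WT in KO C22 and 47.1% in KO C28, with medians of 0.02 and -0.06. Without Bru-seq KO C28 replicate 2 the 11 became 5, a count for which the share over all genes is not given here.

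Among the ligands only SHH was abundant enough to test. It gave 8, 88 and 66 reads in WT. KO C22 gave 14, 128 and 124, and KO C28 gave 90, 57 and 646, in the order Bru-seq replicates 1 and 2 and BruUV-seq. The BruUV-seq library of KO C28 stood apart at 36.3 CPM, against 0.366 to 9.56 in the other 8. For SHH, a log2 fold change of 0.98 (SE 0.89, adjusted p = 0.992) was found in KO C22, and of 2.35 (SE 0.94, adjusted p = 0.468) in KO C28. IHH and DHH gave at most 12 and 11 reads in a library.

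The 4 tested genes of ligand processing and release had medians of 1.10 in KO C22 and 1.42 in KO C28. HHAT, the acyltransferase that attaches palmitate to hedgehog ligands, stood higher in both clones in every library. It gave 14.6, 12.4 and 10.1 CPM in WT. KO C22 gave 36.3, 84.1 and 31.7, and KO C28 gave 27.1, 97.3 and 33.4, in the same order. KO C22 differed from WT by 1.98 (SE 0.51) on the log2 scale, KO C28 by 2.03 (SE 0.51), which did not pass in edgeR (adjusted p = 0.247 and 0.237) and did in DESeq2 (0.0319 and 0.0103). Without Bru-seq KO C28 replicate 2 the value in KO C28 was 1.40 (SE 0.43). SCUBE2, which helps release ligand, stood at 1.31 (SE 0.58) in KO C22, with 2.09 (SE 0.59) for KO C28, passing in KO C28 by DESeq2 alone (0.00790). DISP1, the ligand exporter, stood at 0.13 (SE 0.59) and 0.81 (SE 0.60), and SCUBE3 at 0.89 (SE 0.72) and -0.30 (SE 0.71).

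The 4 other receptors and co-receptors tested had medians of 1.49 and 2.51. GAS1 had 5 reads in 1 library and 0 in the other 8. LRP2, an endocytic receptor, stood at 2.20 (SE 1.05) in KO C22 (log2) and 3.10 (SE 1.08) and the glypican gene GPC5 at 1.22 (SE 1.00) and 2.43 (SE 1.04). Both had their highest values in the 2 libraries of highest background density, with 155 and 153 reads of LRP2 in Bru-seq KO C22 replicate 1 and KO C28 replicate 2 and at most 40 in any other. GPC5 lay below background in every library, at 0.231 to 0.825 of it, as did the glypican gene GPC3, at 0.301 to 0.663. LRP2 lay at 0.320 to 1.17 times background. No level of these genes was thus detectable beyond background at this depth. The part of background in their fold changes was not tested.

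The 12 genes of the cilium and signal transduction had medians of 0.13 in KO C22 and -0.14 in KO C28. KIF3A, a motor subunit of ciliary transport, stood at 0.21 (SE 0.43) and -0.12 (SE 0.42). TULP3 stood at 0.06 (SE 0.47) and -0.30 (SE 0.47) and the kinase gene ULK3 at 0.29 (SE 0.69) and 1.16 (SE 0.68). The 9 genes of GLI processing and degradation had medians of -0.10 and -0.25. Among them the casein kinase gene CSNK1A1 stood at -0.10 (SE 0.58) and -0.74 (SE 0.58), CUL3 at 0.25 (SE 0.52) and -0.41 (SE 0.52), CUL1 at 0.14 (SE 0.45) and -0.34 (SE 0.45), and PRKAR1A, a regulatory subunit of protein kinase A, at -0.26 (SE 0.39) and 0.21 (SE 0.39).

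Of 11 other known GLI target genes 8 were tested, with medians of 0.14 in KO C22 and 0.73 in KO C28. The cyclin gene CCND1 stood at 0.42 (SE 0.39) and 0.73 (SE 0.39), SFRP1, a WNT antagonist, at 0.51 (SE 0.35) and 0.55 (SE 0.35), and FOXL1 at -0.15 (SE 0.46) and 0.71 (SE 0.46). IGFBP6, a secreted binder of insulin-like growth factors, stood higher in KO C28. It gave 0.504, 0.205 and 0.548 CPM in WT. KO C22 gave 0.216, 0.177 and 0.925, and KO C28 gave 3.70, 8.92 and 7.09, in the order Bru-seq replicates 1 and 2 and BruUV-seq. For this gene, KO C22 stood at a log2 fold change of -0.18 (SE 0.85) and KO C28 at 4.02 (SE 0.92), with an edgeR adjusted p of 0.173 in KO C28 and 9.68e-05 in DESeq2. The contrast of the clones had an adjusted p of 0.292 in edgeR and 0.000177 in DESeq2. BCL2 and BMP4, named after their values were seen, stood at 2.23 (SE 0.75) and 1.505 (SE 1.09) in the first clone and at 1.73 (SE 0.76) and 3.43 (SE 1.13) in the second. In Bru-seq KO C28 replicate 2 BCL2 had 143 reads, where background would give 179.1. The remaining tested targets were CCND2, at -1.94 (SE 1.34) and -1.69 (SE 1.35), and JAG2, at -0.98 (SE 1.09) and 0.74 (SE 1.09). Of the 8 tested targets, 4 lay above WT in KO C22 and 7 in KO C28.

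UV light shifts reads toward the starts of genes, so genes lose reads with length in BruUV-seq. Over all genes tested the median log2 fold change of BruUV-seq over Bru-seq ran from 0.76 in genes of 2 to 5 kb to -1.27 in genes of 200 kb or more. Of the 7 tested members other than HHIP 0 passed in edgeR, with 1, GLI3, at an unadjusted p below 0.05. By limma-voom 0 passed and by DESeq2 1, again GLI3. In this contrast edgeR called 0.447% of all genes, DESeq2 18.9% and limma-voom 3.07%. HHIP (99.3 kb) stood at -0.36 (SE 0.71, edgeR adjusted p = 0.775), close to the median of -0.43 for genes of 50 to 100 kb.

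SUFU and GLI2 stood above the upper quartile of genes of their length. SUFU (129.4 kb) stood at 0.57 (SE 0.36), where the upper quartile of genes of 100 to 200 kb was -0.17. GLI2 (200.2 kb) stood at 0.46 (SE 0.40), where the upper quartile of genes of 200 kb or more was -0.62. PTCH1 (74.1 kb) at 0.26 (SE 0.46) and GLI1 (12.1 kb) at 1.22 (SE 1.38) also lay above the upper quartile of their classes, 0.15 and 1.11, by less than their standard errors. SMO (24.7 kb) at -0.92 (SE 1.41) lay below its lower quartile of -0.58, again by less than its standard error. CDON (107.5 kb) stood at -0.49 (SE 0.37), within the quartiles of its class. GLI3 (276.1 kb) stood at -3.11 (SE 1.02, edgeR adjusted p = 0.123) and passed in DESeq2 (0.00557) and in edgeR without Bru-seq KO C28 replicate 2 (0.0411), although its reads lay near background. The lower quartile of its class was -2.75.

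**Figure D5:**
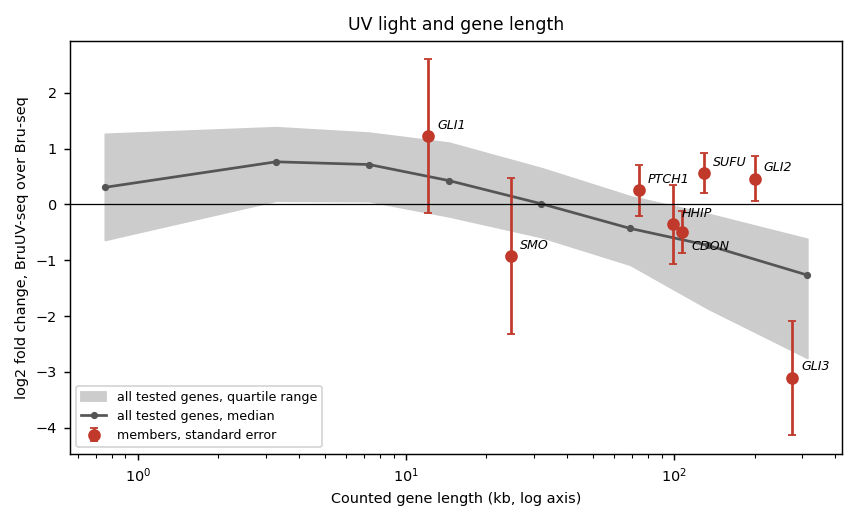
Log2 fold change of BruUV-seq over Bru-seq against counted gene length in kb (log axis), with the median (grey line) and quartile range (grey band) of all tested genes in 8 length classes and the 8 tested members with standard errors (red). SUFU, GLI2, PTCH1 and GLI1 lie above the quartile range of their class, GLI3 and SMO below it, and HHIP and CDON within it.

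Within lines, HHIP differed between the clones by counts alone. BruUV-seq over Bru-seq was 0.319 (0.247 to 0.407) in KO C22, from 72 and 714 reads, and 1.04 (0.772 to 1.39) in KO C28, from 84 and 108. With 1 BruUV-seq library per line this difference was not tested against replicate spread. Of the other members in KO C28, PTCH1 gave 2.17 (1.83 to 2.59), SUFU 1.92 (1.75 to 2.11) and GLI2 1.83 (1.66 to 2.02). CDON gave 0.944 (0.814 to 1.09), near the ratio of HHIP. The members with few reads or reads near background spread widely, with GLI1 at 9.69, SMO at 2.17, BOC at 0.176 and GLI3 at 0.0228. All these ratios include the shallow Bru-seq library of that clone.

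The genes whose pattern was most like that of HHIP were found by the Pearson correlation of log2 CPM over the 9 libraries, among 10766 genes with a mean of at least 50 reads and a length of at least 2 kb. They were SPOCK1, a secreted proteoglycan (r = 0.979), SIPA1L2 (0.961), the transmembrane collagen gene COL13A1 (0.956), the talin gene TLN2 (0.9498) and OLFML2B (0.947). The 9 points share their libraries and are mostly set by the gap between WT and the clones. SPOCK1 gave 22.4, 17.6 and 21.6 CPM in WT. KO C22 gave 500.8, 527.3 and 263.9, and KO C28 gave 473.6, 159.8 and 224.5, in the order Bru-seq replicates 1 and 2 and BruUV-seq. Like HHIP, it was lowest of the clone libraries in Bru-seq KO C28 replicate 2. The other 7 tested members correlated with HHIP at -0.37 (GLI1) to 0.18 (GLI3).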

How the data were processed

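Bru-seq and BruUV-seq were run on WT, KO C22 and KO C28. Per the submitters' processing notes, CASAVA 1.8.2, Bowtie2 2.3.3, STAR 2.5.3a and bedtools 2.16.2 were used, with hg38 and GRCh38 named. For the annotation, no release is named in the sources used here. Expected counts per gene, often fractional, and RPKM were computed by the authors and used as deposited, with the coordinates of the same tables.

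Counts were rounded and fitted with edgeR 4.0.16 (R 4.3.3) over 9 libraries, with line and assay as coefficients, filterByExpr, TMM factors, the quasi-likelihood test, and adjusted by Benjamini-Hochberg over 20819 genes at 0.05. The biological coefficient of variation was 63.4%. Standard errors of edgeR values were taken as the absolute log2 fold change over the square root of the quasi-likelihood F statistic. They are less steady where the fold change is near 0. DESeq2 1.42.0, limma 3.58.1 (voom), upper-quartile factors, no filter, a replicate block, Bru-seq alone, subtraction of background density, an offset for gene length and the omission of each library were alternatives. The code of the fit was checked on simulated counts with less spread than these libraries show and no difference between assays. That check does not measure how the fit performs on these data. Reads without molecular identifiers hold PCR copies, so intervals cover counting error only. The members and gene lists were chosen with earlier results of these data known. Named beside the members were KDM6A, the genes within 1 Mb of HHIP, up to 4 genes per list by mean RPKM, and the 5 genes most like HHIP. Some genes that this rule names are not reported here.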

Additional observations from a re-analysis of the deposited data

How the results depend on the processing

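HHIP lay above WT in both clones in 17 of 17 alternatives. Its log2 fold changes were 6.30 to 10.69 in KO C22 and 4.68 to 8.92 in KO C28, highest with background subtraction. Every alternative refits the same reads, whose difference chose HHIP, so the shared direction adds no support. Of the other members none passed between lines in any alternative. The numbers of genes called over the whole table, the background of every count above, moved more. From 37 in KO C22 and 26 in KO C28 they became 348 and 711 with DESeq2, 272 and 1100 without the low-count filter, 6 and 9 after background subtraction and 1 and 1 on the Bru-seq libraries alone. From 0 between the clones they became 228, 230, 2 and 0 under those settings, and 2 with the length offset. From 93 for BruUV-seq against Bru-seq they became 3941 with DESeq2, 2326 without the filter, 640 with limma-voom, and 0 with upper-quartile factors, background subtraction or the length offset, with 5212 at an unadjusted p below 0.05 in the unaltered fit. With 1 library left out the counts ran from 3 to 142 in KO C22, 1 to 67 in KO C28, 0 to 18 between the clones and 0 to 3305 for UV light. The highest of each came without Bru-seq KO C28 replicate 2. The cause of these shifts was not tested.

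Whether the replicate numbers pair the libraries could not be settled. Residuals of same-numbered Bru-seq libraries correlated at 0.459 between WT and KO C22. They correlated at 0.037 when KO C28 was set against WT, and at -0.382 for the pair of clones. Both values with KO C28 rest on its shallow replicate 2, so they cannot decide it. With the replicate block 46 genes were called in KO C22, 49 in KO C28 and 0 between the clones. GLI3 in BruUV-seq against Bru-seq passed in DESeq2, without the filter (adjusted p = 0.0175) and without Bru-seq KO C28 replicate 2. Depth limits SMO, GLI1, GLI3 and BOC, of which SMO, GLI1 and BOC gave fewer than 50 reads in each library and GLI3 lay near background.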
